A study of Mus musculus with 16 samples.

Results

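The inward rectifier and two-pore potassium channels described here are 10 genes chosen by their symbols among the 32285 genes counted in every library: *Kcnj2*, *Kcnj3*, *Kcnj4*, *Kcnj6*, *Kcnj9* and *Kcnj10* of the inward rectifier (Kir) family, and *Kcnk1*, *Kcnk2*, *Kcnk9* and *Kcnk10* of the two-pore (K2P) family. Each symbol had 1 row in the files. Nuclei came from the microdissected dentate gyrus (DG) of 8 mice, 4 wild type (WT, genotype VV) and 4 homozygous for the V321L mutation of *Nrg1* (genotype LL), with 2 females (F1, F2) and 2 males (M1, M2) in each group. The age and strain of these 8 mice are not given in the sources used here. A combined (Multiome) kit read RNA and open chromatin from the same nuclei, with 1 library per mouse. V321L changes an amino acid, so the RNA level of *Nrg1* does not check the label, and the mutation is present in every cell class of the mutant mice.

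Kir channels pass potassium more easily into the cell than out of it and hold the membrane near the potassium equilibrium potential. The Kir2 genes *Kcnj2* and *Kcnj4* encode strongly rectifying, constitutively open channels. *Kcnj3*, *Kcnj6* and *Kcnj9* encode the GIRK subunits GIRK1, GIRK2 and GIRK3, which open when G protein βγ subunits are released by inhibitory receptors such as GABA-B. *Kcnj10* encodes Kir4.1, the main potassium channel of astrocytes, where it takes up the potassium that active neurons release. K2P channels carry the background or leak current: *Kcnk1* encodes TWIK1, *Kcnk2* and *Kcnk10* the mechanically and lipid-gated TREK1 and TREK2, and *Kcnk9* the acid-sensitive TASK3. The study followed *Kcnk1* and *Kcnj2* in semilunar granule cells (SGCs), a rare type of granule cell (GC) for which it used *Penk* and *Sorcs3* as markers.

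Promoter sequences of 2 neighbouring members are shown because their accessibility had opposite patterns across cell classes (described after the RNA levels). RefSeq windows of 250 bases before to 50 bases after a start site on GRCm38.p6, the assembly of which mm10 is the browser name, were found for 9 of the 10 members, with none for *Kcnk9*. The windows of *Kcnj9* (chr1:172329273-172329572, minus strand) and *Kcnj10* (chr1:172340960-172341259, plus strand) lie 11387 bases apart. Capitals mark the bases TATAAA (called a TATA box here) or GGGCGG (called a GC box). Each was searched on both strands and at any position in the window, so a match is not shown to act at the start site.
Kcnj9: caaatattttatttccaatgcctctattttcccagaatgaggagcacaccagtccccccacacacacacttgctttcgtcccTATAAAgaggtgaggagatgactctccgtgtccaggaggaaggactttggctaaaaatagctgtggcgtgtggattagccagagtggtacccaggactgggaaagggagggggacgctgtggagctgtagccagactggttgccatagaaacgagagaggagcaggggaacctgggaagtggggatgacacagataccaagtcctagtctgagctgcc
Kcnj10: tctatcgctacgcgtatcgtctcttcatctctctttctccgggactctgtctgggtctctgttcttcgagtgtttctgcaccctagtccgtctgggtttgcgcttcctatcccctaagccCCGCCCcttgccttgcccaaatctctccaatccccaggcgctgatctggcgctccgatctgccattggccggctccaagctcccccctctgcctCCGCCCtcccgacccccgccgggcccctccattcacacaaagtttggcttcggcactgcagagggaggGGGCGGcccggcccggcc
The *Kcnj9* window held 1 TATA box and no GC box, 5 CpG sites and 52.3% G and C, while the *Kcnj10* window held 3 GC boxes, no TATA box, 21 CpG sites and 63.7% G and C. Of 32851 mouse windows of the same length, 35.7% held a GC box and 13.6% a TATA box. Among the 14 windows of the members, 7 held a GC box, with 4 in the window of *Kcnj4* (chr15:79505192-79505491) and 2 in that of *Kcnj2* (chr11:111065914-111066213), and the *Kcnj9* window alone held a TATA box.

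Nuclei were assigned to classes by marker genes that do not include the channels, 11031 of 17015 as GCs, and 7 classes had at least 10 nuclei in every mouse. The gate was adjusted after the data were seen, and calls that differ with the markers and rule first listed are given beside the results. Median unique molecular identifiers (UMIs, counted RNA molecules) per GC ranged from 1109 to 2020 in WT and from 3287 to 4717 in V321L libraries. Mitochondrial shares (medians of 0.0630% to 0.130% in WT GCs, 0.298% to 1.08% in V321L) and ribosomal protein RNA (0.0473% to 0.114% of GC UMIs, 0.838% to 1.79%) also separated the groups completely. These library properties and the genotype cannot be told apart. In GCs the summed markers of other classes reached 1914 to 2431 counts per 1000000 UMIs of the class (CPM) in WT and 1386 to 1565 in V321L mice for the GABAergic list, 645 to 836 and 492 to 619 for oligodendrocyte precursors (OPCs), 306 to 441 and 131 to 173 for other excitatory neurons, and 157 to 258 and 114 to 141 for microglia. The ranges overlapped for the oligodendrocyte (365 to 434 and 380 to 475) and astrocyte lists (229 to 279 and 189 to 279). Promoters of the class markers were most accessible in their own class for 10 of 10 microglial, 7 of 7 astrocyte, 6 of 6 OPC and 8 of 10 oligodendrocyte markers, but for only 5 of 9 GC, 3 of 6 GABAergic and 2 of 4 markers of other excitatory neurons. Any 2 libraries shared between 1 and 13 barcodes. *Xist* and Y-linked RNA matched the labelled sex in all 8 mice.

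Levels below are CPM within the class and mouse, as mean ± SD over mice. They are not corrected for gene length, so levels are compared between classes and not between genes. RNA that leaves broken cells enters all droplets, so the level of each gene in droplets with at most 100 UMIs, called free RNA here, is given beside the levels it comes near. The fixed test of neighbouring classes, an exact sign-flip test over the 8 mice, passed its adjusted threshold in 0 of 60 pairs, and 13 of 60 reached an unadjusted p under 0.05, so no full order of classes can be read. A test added after seeing these data compared each class with the GCs of the same mouse on log2(CPM + 10), with p-values adjusted over its 60 pairs, and 50 passed, 6 with the class above GCs and 44 below. It was run for the members only, so no share of all genes stands beside these counts. A mean of log2 values can also lie below GCs where the mean CPM does not. *Kcnj2* in oligodendrocytes averaged 17.6 CPM over 8 mice, against 15.6 in GCs, with a log2 difference of -0.28. In classes with few UMIs, a score below GCs can also come from 0 counts alone. *Kcnj2* scored below GCs in the OPCs of 8 of 8 mice. Yet 0 UMIs in WT OPCs allowed up to 25.2 CPM, above the mean of 15.6 CPM in GCs. The 44 are therefore not all shown to be lower levels.

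The GIRK subunits were highest in GCs. *Kcnj3* averaged 1568 CPM ± 77.1 in WT GCs (n = 4), against 869 ± 39.4 in GABAergic neurons, 750 ± 129 in other excitatory neurons and 699 ± 56.1 in astrocytes or radial glia. Oligodendrocytes (528 ± 123), OPCs (542 ± 146) and microglia (480 ± 168) stood at 1.11, 1.14 and 1.01 times the WT free RNA level of 475 CPM ± 55.3. *Kcnj3* was lower than in GCs in all 8 mice in each of the 6 other classes (log2 differences of -0.91 to -2.34, adjusted p = 0.0130, exact sign-flip test). *Kcnj6* averaged 393 CPM ± 42.6 in WT GCs and 250 ± 66.3 in other excitatory neurons, and its WT means in the other classes, between 124 and 179 CPM, lay near its free RNA level of 164. It too was below the GC level in 8 of 8 mice in every other class. *Kcnj9* averaged 18.8 CPM ± 6.60 in WT and 41.4 ± 2.78 in V321L GCs, beside free RNA levels of 19.0 ± 7.27 and 19.6 ± 5.86, so its WT GC level did not stand above free RNA. No UMI of it was counted in WT oligodendrocytes, which allows up to 16.3 CPM (3 UMIs of the class total, counting error only).

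*Kcnj4* (Kir2.3) was also highest in GCs, with 10.2 CPM ± 5.57 in WT and 47.0 ± 6.46 in V321L mice. Its free RNA level was higher than that of WT GCs and close to that of V321L GCs (22.0 ± 6.48 and 47.2 ± 11.8), and no *Kcnj4* UMI was counted in WT oligodendrocytes, OPCs or microglia, which allows up to 16.3, 25.2 and 31.3 CPM. *Kcnj2* (Kir2.1) averaged 12.7 CPM ± 5.58 in WT GCs and 36.2 ± 34.6 in V321L microglia, which held the highest mean, but the microglial values spread from 0 to 87.2 CPM and did not pass against GCs (log2 difference of 0.04, adjusted p = 0.922, exact sign-flip test). The WT GC mean was below the WT free RNA level of 17.2 CPM ± 5.92, while free RNA in V321L libraries held 5.82 ± 1.94. Neurons other than GCs held less *Kcnj2* than GCs in 8 of 8 mice (-0.86 and -0.80, adjusted p = 0.0130, exact test). No *Kcnj2* UMI was counted in OPCs, which allows up to 25.2 CPM in WT and 11.8 CPM in V321L mice.

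*Kcnj10* was a glial gene in these nuclei. WT astrocytes or radial glia held 63.6, 37.3, 60.3 and 55.3 CPM in F1, F2, M1 and M2, whereas WT GCs held 0.287, 1.32, 5.0 and 0.507. Oligodendrocytes (48.6 CPM ± 52.2 in WT, 91.1 ± 19.9 in V321L) and OPCs (29.8 ± 24.6 and 59.6 ± 32.3) stood near the astrocyte level, and no UMI was found in WT GABAergic or other excitatory neurons (up to 4.31 and 4.01 CPM allowed) or in WT microglia (up to 31.3). Astrocytes exceeded GCs in 8 of 8 mice (log2 difference of 2.90, adjusted p = 0.0130, exact sign-flip test), and oligodendrocytes (2.48) and OPCs (1.99) in 7 of 8 (adjusted p = 0.0204 each, exact test). Free RNA held 43.2 CPM ± 15.5 of *Kcnj10* in WT and 30.2 ± 6.74 in V321L libraries, near the WT glial means and above the mean of every neuronal class. As a share of nuclei, 6.44% of 419 WT astrocytes but 0.264% of 6822 WT GCs had a *Kcnj10* UMI, with median depths of 925 to 1336 UMIs in the astrocytes and 1109 to 2020 in the GCs.

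Two-pore channel genes differed in where they were highest. *Kcnk1* reached 112 CPM ± 39.1 in WT and 283 ± 63.6 in V321L astrocytes or radial glia, above the GCs of the same mouse in 8 of 8 mice (0.79, adjusted p = 0.0130, exact sign-flip test), with GCs at 71.6 ± 14.2 and 131 ± 6.62. The WT astrocyte mean was 1.07 times the WT free RNA level of 105 CPM, and the WT GC mean was below that level. Neurons other than GCs held less *Kcnk1* than GCs (25.4 ± 13.8 and 24.4 ± 8.20 CPM in WT), and so did oligodendrocytes and microglia. Among the 7 classes *Kcnk2* was highest in astrocytes or radial glia and in OPCs, at 265 ± 22.2 and 276 ± 35.0 CPM in V321L mice. Of these 2 classes the astrocytes passed against GCs (0.88, 7 of 8 mice, adjusted p = 0.0204, exact test). The OPC difference was 0.29 (adjusted p = 0.617, exact test), with WT OPCs at 33.6, 0, 0 and 149 CPM on 0 to 5 UMIs. *Kcnk10* was highest in OPCs of both genotypes, with 168 CPM ± 75.6 in WT and 161 ± 62.4 in V321L mice (0.79 above GCs, 7 of 8 mice, adjusted p = 0.0287, exact test), which was 4.40 times the WT free RNA level of 38.3. *Kcnk9* was highest in GCs (27.3 ± 2.80 and 42.6 ± 4.41 CPM). Its GABAergic level (21.8 ± 13 and 29.2 ± 15.3) was lower than theirs in 6 of 8 mice, which did not pass (-0.41, adjusted p = 0.0884, exact test). No *Kcnk9* UMI was found in WT oligodendrocytes or OPCs (up to 16.3 and 25.2 CPM allowed).

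**Figure D1:**
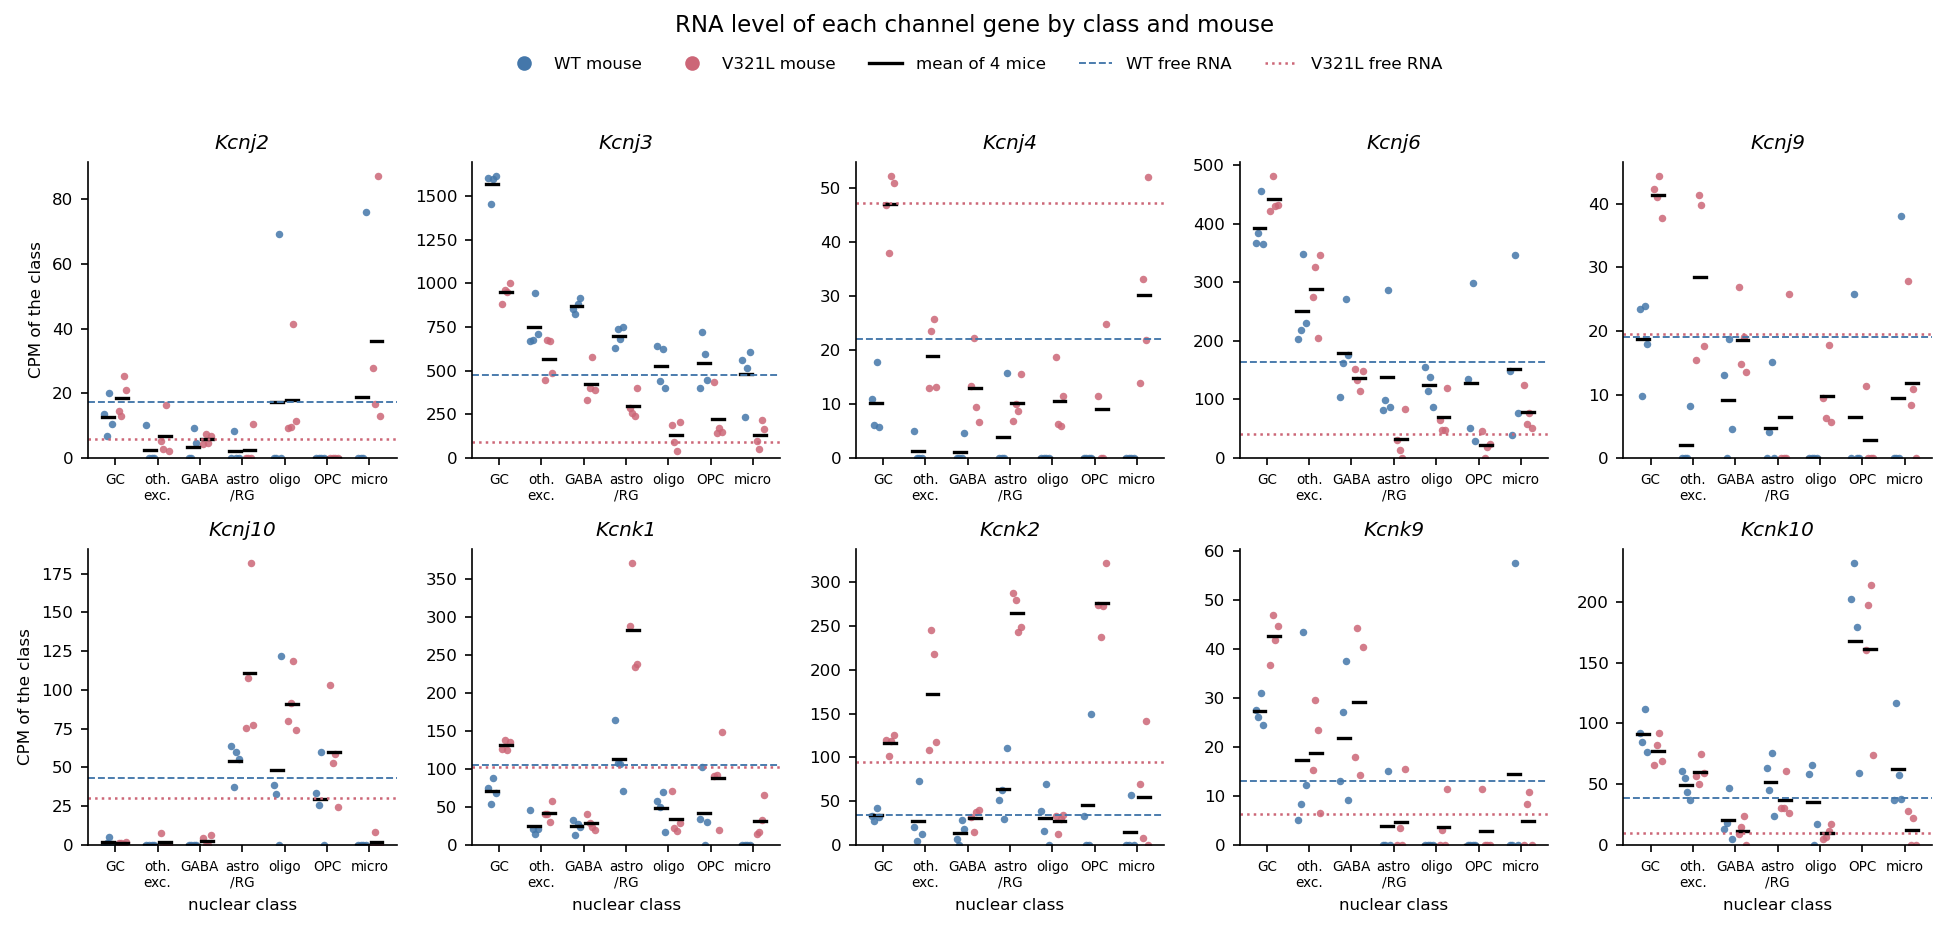
RNA level (CPM of the class, linear axes with a scale of their own for each gene) of the 10 channel genes in 7 nuclear classes, with 1 point per mouse, black lines for the mean of 4 mice, and dashed and dotted lines for the mean free RNA level of each genotype. *Kcnj3* and *Kcnj6* peak in GCs (WT means of 1568 and 393 CPM), *Kcnj10* is near 0 in the neuronal classes and microglia, and *Kcnk10* is highest in OPCs.

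Leaving the V321L mice out kept the class with the highest mean for 10 of 10 members, as did subtracting 15% free RNA from each class, and leaving the WT mice out kept it for 9 of 10, with *Kcnk2* then highest in OPCs. These settings reuse the data that gave the order and do not replicate it. For *Kcnj2* the class kept in WT mice was microglia, where 1 of 83 nuclei held a UMI. Small classes, pooled over mice and given with exact Poisson 95% intervals that cover counting error only, held *Kcnk2* at 738 CPM (549 to 970, 51 UMIs) in V321L and 255 CPM (117 to 484, 9 UMIs) in WT Cajal-Retzius-like nuclei, and at 306 CPM (194 to 459) in V321L vascular nuclei. V321L nuclei with neuroblast markers held 308 CPM of *Kcnk1* (218 to 422, 38 UMIs) and 283 CPM of *Kcnk2* (197 to 394, 35 UMIs), whereas the 16 WT nuclei of that class gave 1 UMI of each.

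Accessibility of the promoter was measured as ATAC counts in called peaks that overlap the start sites given in the files ± 1000 bases, per 1000000 ATAC counts in peaks of the class (ATAC CPM). Around *Kcnj10* it was 75.0 ± 34.7 ATAC CPM in astrocytes or radial glia, 81.4 ± 38.1 in oligodendrocytes and 62.1 ± 40.5 in OPCs, against 7.21 ± 1.73 in GCs (SD over 8 mice). Astrocytes and oligodendrocytes exceeded GCs in 8 of 8 mice (log2 differences of 2.19 and 2.25, adjusted p = 0.0213) and OPCs in 7 of 8 (1.76, adjusted p = 0.0293), by an exact sign-flip test added after seeing these data and adjusted over 60 pairs. The neighbouring *Kcnj9* promoter had the opposite pattern. It averaged 34.2 ± 4.25 ATAC CPM in GCs, 36.3 ± 21.4 in other excitatory and 37.8 ± 21.5 in GABAergic neurons, but 7.54 ± 4.18 in astrocytes, 12 ± 16.8 in oligodendrocytes, 10.6 ± 16 in OPCs and 6.97 ± 12.3 in microglia, and all 4 glial classes were below GCs (-1.29 to -1.60, adjusted p between 0.0213 and 0.0414, exact test).

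Across the 10 promoters, 34 of the 60 comparisons with GCs passed, 5 higher and 29 lower. Promoters of all genes were not compared in this way, so these counts have no background share. *Kcnk1* was more accessible in astrocytes or radial glia than in GCs in 8 of 8 mice (39.1 ± 13.3 and 26.2 ± 6.94 ATAC CPM, log2 difference of 0.41, adjusted p = 0.0213, exact test), the class in which its RNA was highest. *Kcnk2* was more accessible in other excitatory neurons than in GCs (33.7 ± 5.79 and 25.3 ± 6.53, 8 of 8 mice, 0.32, adjusted p = 0.0213, exact test), while its astrocyte and OPC values did not pass against those of GCs (adjusted p = 0.750 and 0.906, exact test). *Kcnk10* was accessible at 62.0 ± 34.1 ATAC CPM in OPCs and 73.8 ± 11.7 in GCs, a log2 difference of -0.47 that did not pass (adjusted p = 0.371, exact test). *Kcnj6* was at 231 ± 24.6 in GCs and between 62.8 and 77.0 in the 4 glial classes, below GCs in 8 of 8 mice in each (adjusted p = 0.0213, exact test). At *Kcnk9*, 0 counts were found in OPCs and in oligodendrocytes of all 8 mice. The start-site interval of *Kcnj6* spans 141025 bases and held 4 to 23 peaks per library, so its value covers part of the gene body. That of *Kcnk2* spans 58864 bases and held 1 to 4 peaks, so its value too is not that of a single promoter.

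**Figure D2:**
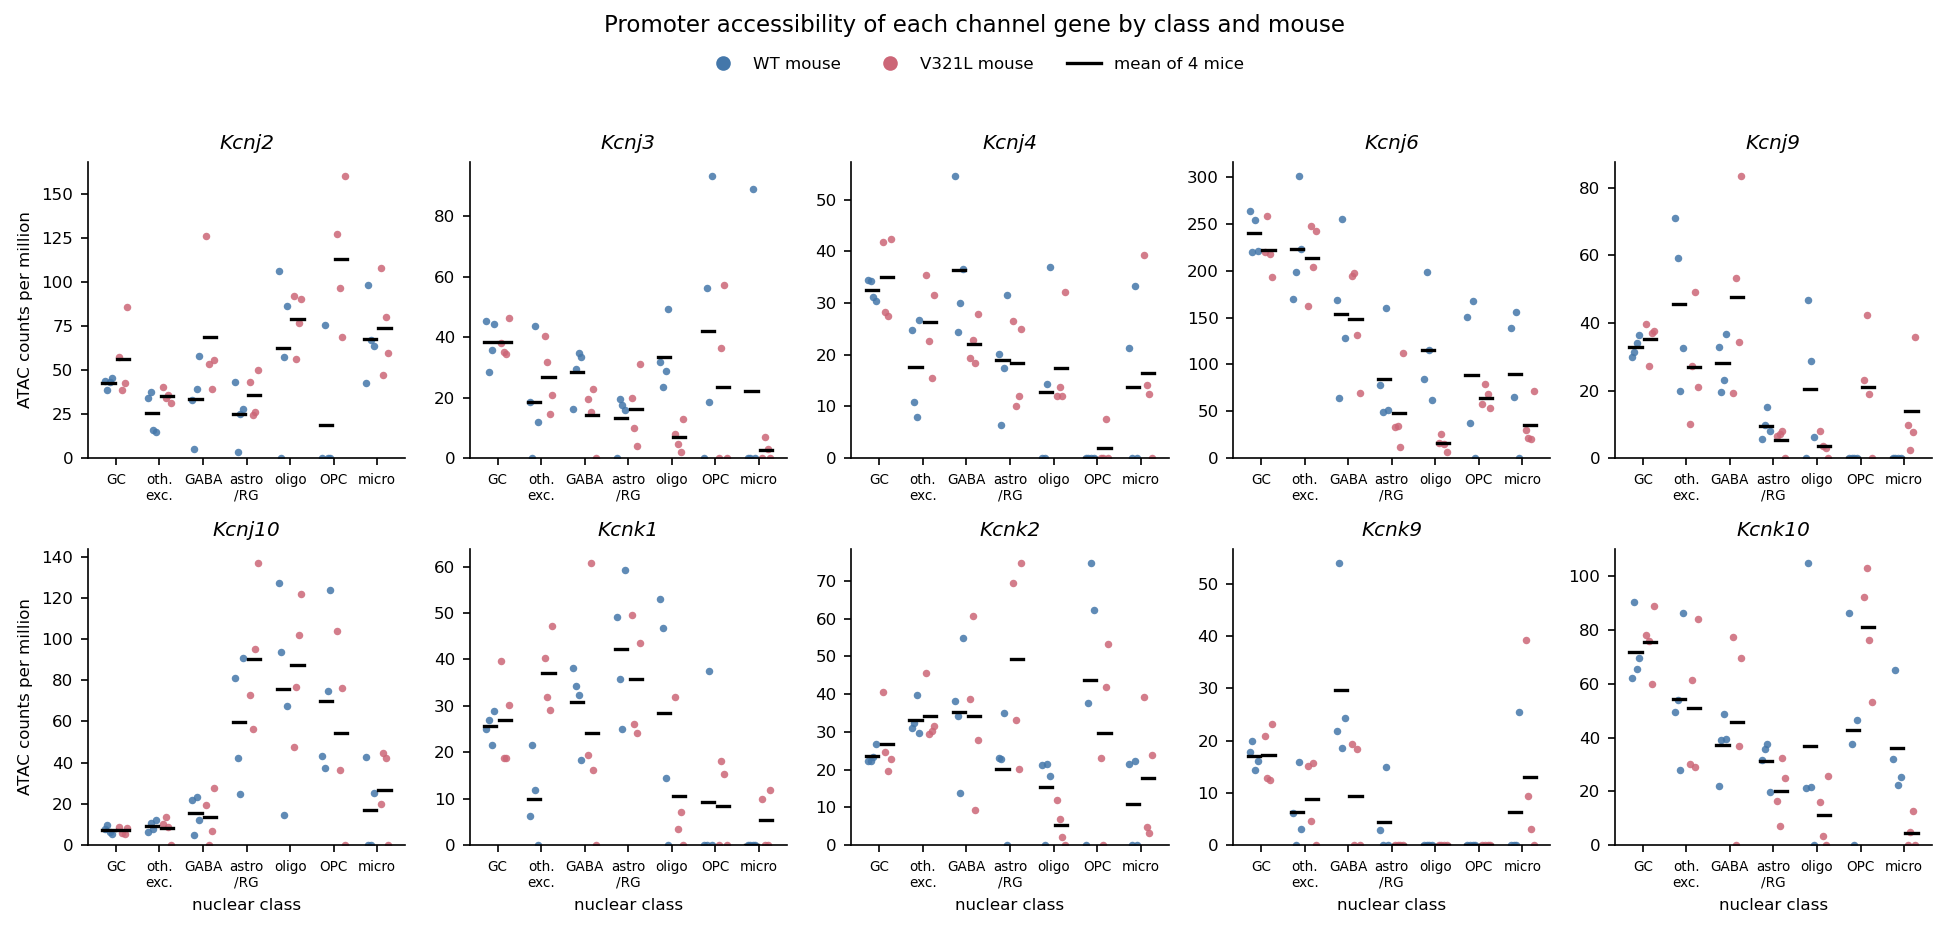
Promoter accessibility (ATAC counts per 1000000 in peaks of the class, linear axes from 0) of the 10 genes by class, with 1 point per mouse and black lines for the mean of 4 mice. *Kcnj10* is accessible in astrocytes, oligodendrocytes and OPCs (62.1 to 81.4 ATAC CPM) and *Kcnj9*, 11387 bases away, in the neuronal classes (34.2 to 37.8).

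The genotypes were compared in GCs to see which channel genes differ in V321L mice. UMIs were summed over the GCs of each mouse, and edgeR's quasi-likelihood test with TMM scaling (which sets the libraries against each other by the bulk of their genes) was fitted to 12555 genes with Benjamini-Hochberg adjustment. Of the 9 members tested, 4 were higher and 3 lower in V321L GCs, where 70.1% of all genes tested passed (38.4% higher, 31.7% lower), so a passing member is not set apart from other genes. The median log2 fold change of the members was 0.20, beside 0.11 for all genes. Scaling by library size alone moved the median of all genes to 0.56 and the share of calls that were higher from 54.8% to 75.8%, so the differences are also given minus that median, which is nearly the same under both.

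*Kcnj3* stood at 1606, 1453, 1596 and 1617 CPM in the WT mice F1, F2, M1 and M2, and at 882, 965, 952 and 1001 CPM in the V321L mice. Every WT mouse was above every V321L mouse. Its log2 fold change was -1.17 ± 0.10 (SE, adjusted p = 1.21e-06, edgeR), or -1.28 relative to the median gene, and it kept its direction and call under all 24 alternatives (-1.27 to -0.72). Of the other GIRK subunits, *Kcnj6* shared this direction in the fit but not in mean CPM, and *Kcnj9* went the other way. *Kcnj6* gave 367, 383, 455 and 365 CPM in WT and 421, 481, 430 and 432 in V321L mice, so the groups overlapped and the mean CPM was higher in V321L (441 ± 26.8 against 393 ± 42.6). Its fitted log2 fold change was -0.27 ± 0.10 (adjusted p = 0.0233, edgeR), or -0.38 relative to the median gene, but 0.17 with library sizes alone. The call was lost in 6 of 24 alternatives, among them the fits without V321L F1, M1 or M2 and with free RNA subtracted. *Kcnj9* gave 23.5, 9.77, 23.9 and 18.0 CPM in WT and 42.3, 41.1, 44.4 and 37.8 in V321L mice, without overlap, and rose by 0.76 ± 0.20 on the log2 scale (adjusted p = 0.00420, edgeR), 0.65 above the median gene.

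Of the Kir2 genes, *Kcnj4* gave 10.9, 6.2, 17.8 and 5.83 CPM in WT and 46.8, 37.9, 52.2 and 50.9 in V321L GCs. The groups did not overlap, and its log2 fold change of 1.89 ± 0.25 (adjusted p = 2.43e-05, edgeR), 1.78 above the median gene, kept its call under all 24 alternatives (1.41 to 2.33). Free *Kcnj4* RNA was at 22.0 CPM in WT and 47.2 in V321L libraries, and its part in the difference was not tested. *Kcnj2* gave 13.5, 6.76, 20.0 and 10.6 CPM in WT and 14.5, 13.1, 25.5 and 20.9 in V321L mice on 36 to 108 UMIs per mouse. The groups overlapped, and the log2 fold change of 0.19 ± 0.28, 0.08 above the median gene, did not pass (adjusted p = 0.556, edgeR) and changed sign under thinning to 1000 or 500 UMIs and without WT F2 or V321L M1. *Kcnj10* was too low in GCs to be tested, with 1 to 9 UMIs per mouse.

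Among the two-pore genes, *Kcnk2* had the largest GC difference by fold, with 33.6, 27.6, 42.2 and 31.9 CPM in WT and 120, 102, 119 and 125 in V321L mice. The log2 fold change was 1.37 ± 0.11 (adjusted p = 1.12e-06, edgeR), 1.26 above the median gene, and kept its call under all 24 alternatives (1.24 to 1.81). Its free RNA level was 33.9 ± 3.80 CPM in WT and 94.2 ± 4.55 in V321L libraries, and the part of this in the difference was not tested. *Kcnk1* gave 75.2, 54.1, 88.4 and 68.9 CPM in WT and 126, 138, 125 and 136 in V321L mice, without overlap, and a log2 fold change of 0.45 ± 0.11 (adjusted p = 0.00217, edgeR), 0.34 above the median gene, that kept its call under all 24 alternatives (0.34 to 0.89). Free *Kcnk1* RNA was level, at 105 and 102 CPM. *Kcnk10* gave 92.1, 84.4, 112 and 76.2 CPM in WT and 65.8, 82.3, 92.4 and 69.3 in V321L mice, so the groups overlapped in CPM, and fell by 0.66 on the log2 scale (SE 0.13, adjusted p = 0.000721, edgeR), a call that was lost with library sizes alone (-0.22). Relative to the median gene it was at -0.77 with TMM and -0.78 with library sizes. *Kcnk9* gave 27.5, 26.1, 31.1 and 24.6 CPM in WT and 36.8, 47.0, 41.8 and 44.7 in V321L mice. These CPM did not overlap, yet the TMM fit gave 0.20 ± 0.13 (adjusted p = 0.166, edgeR), 0.09 above the median gene, and it passed only with library sizes alone (0.65).

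**Figure D3:**
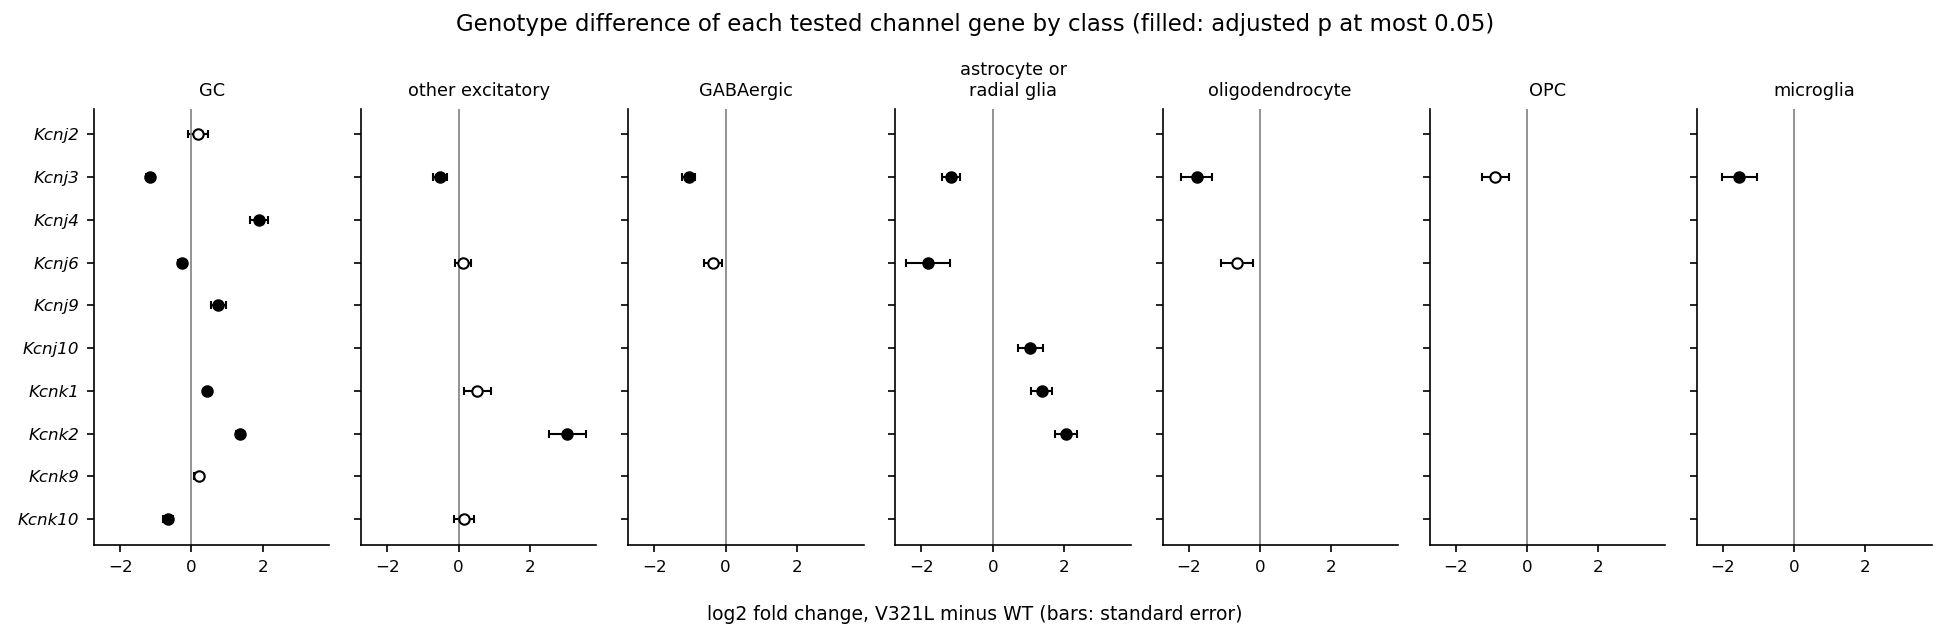
Log2 fold change (V321L minus WT, edgeR with TMM) of each tested channel gene in 7 classes, with bars for the standard error and filled points for an adjusted p of at most 0.05; genes without a point were too low to be tested. In GCs *Kcnj4* (1.89) and *Kcnk2* (1.37) lie highest and *Kcnj3* (-1.17) lowest, and *Kcnj3* lies below 0 in all 7 classes.

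Outside GCs fewer members could be tested, and *Kcnj3* was tested in all 6 classes. The filter on low counts asked for enough counts in 4 mice, so a gene could enter a fit through 1 genotype alone. A call reached in that way is a description. *Kcnj3* was higher in WT mice and may have entered the oligodendrocyte and microglial fits through WT counts alone. Its calls there are therefore given as descriptions. In other excitatory neurons 2 of 5 members tested passed, beside 35.2% of all genes (20.8% higher and 14.4% lower), in GABAergic neurons 1 of 2 beside 32.4% (19.5% higher and 12.9% lower), in astrocytes or radial glia 5 of 5 beside 42.7% (24.4% and 18.3%), in oligodendrocytes 1 of 2 beside 29.5% (18.6% and 10.9%), in OPCs 0 of 1 beside 30.3% (16.8% and 13.5%), and in microglia 1 of 1 beside 16.2% (13.4% and 2.77%). *Kcnj3* was lower in V321L mice in other excitatory neurons (-0.52 ± 0.19, adjusted p = 0.0466), GABAergic neurons (-1.04 ± 0.19, 0.000459), astrocytes or radial glia (-1.17 ± 0.24, 0.00188), oligodendrocytes (-1.77 ± 0.43, 0.00701) and microglia (-1.53 ± 0.48, 0.0485), all adjusted p from edgeR fits per class. In OPCs it did not pass (-0.89 ± 0.38, adjusted p = 0.0896, unadjusted p = 0.0321, edgeR; adjusted p = 0.112 with DESeq2), although it passed without V321L F1 (-1.46, adjusted p = 0.00643, edgeR). Free *Kcnj3* RNA was 475 CPM ± 55.3 in WT and 93 ± 11.1 in V321L libraries, close to the oligodendrocyte (528 and 132) and microglial means (480 and 134), and its part in these differences was not tested. With 15% free RNA subtracted, the calls in other excitatory neurons (adjusted p = 0.187) and microglia (0.119) were lost and those in GABAergic neurons, astrocytes and oligodendrocytes kept. The same 15% was taken from every library and class, and the true share of free RNA in each was not measured. The kept calls are therefore not shown to be free of its effect. The microglial call was also lost in each fit that left out 1 mouse, except WT F2, and the call in other excitatory neurons without V321L F1, F2 or M2 and with nuclei thinned to 1000 UMIs (-0.02). With the markers first listed, *Kcnj3* passed in OPCs (-1.12, adjusted p = 0.00745, edgeR) and was too low in microglia to be tested.

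Astrocytes or radial glia held the most member calls outside GCs, 3 higher and 2 lower. *Kcnk2* stood at 50.9, 62.2, 30.2 and 111 CPM in WT and 288, 280, 243 and 249 in V321L astrocytes, a log2 fold change of 2.06 ± 0.30 (adjusted p = 0.000150, edgeR) kept in all 15 alternatives. *Kcnk1* stood at 165, 108, 106 and 71.1 CPM in WT and 288, 371, 234 and 238 in V321L mice, 1.37 ± 0.29 (adjusted p = 0.00231, edgeR), also kept in all 15. *Kcnj10* stood at 63.6, 37.3, 60.3 and 55.3 CPM in WT and 75.3, 108, 182 and 77.7 in V321L mice on 4 to 32 UMIs. It did not overlap and rose by 1.05 ± 0.35 (adjusted p = 0.0273, edgeR), but 8 of 14 alternatives lost the call, among them the fits without WT F1, F2 or M2 and without V321L F2 or M1. *Kcnk2* and *Kcnj10* passed the filter on low counts in this class through their V321L mice, so their calls are given as descriptions. *Kcnj6* was lower (139 CPM ± 98.7 and 31.8 ± 36.3, -1.81 ± 0.62, adjusted p = 0.0323, edgeR), with free RNA at 164 and 41.3 CPM, and the call was lost with free RNA subtracted and without V321L F1 or F2. It may have passed the filter through its WT mice alone, so its call is given as a description too. With the markers first listed, 3 members passed here, where 878 of 2314 genes tested passed. *Kcnj10* did not pass (1.03, adjusted p = 0.0934, edgeR) and *Kcnj6* was too low to be tested.

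In other excitatory neurons *Kcnk2* stood at 20.3, 4.21, 72.5 and 12.3 CPM in WT mice on 1 to 5 UMIs and at 108, 245, 218 and 117 in V321L mice on 42 to 93. The log2 fold change was 3.05 ± 0.52 (adjusted p = 0.000887, edgeR). The gene was high enough to be tested through its V321L counts alone, so this call is given as a description. With the markers first listed, 4 members passed in this class, where 3495 of 7207 genes tested passed. They were *Kcnj9* (2.70 ± 0.62), *Kcnk9* (1.17 ± 0.34), *Kcnj3* and *Kcnk2*. That gate did not subtract the GC level and put 93 to 220 WT and 95 to 185 V321L nuclei per mouse in the class. The main gate put 30 to 64 and 51 to 77 there. Whether the added nuclei were GCs was not tested. In the main gate 2 of 188 WT nuclei of the class had a *Kcnj9* UMI. *Kcnk2* in OPCs had too few counts to be tested, and its values (33.6, 0, 0 and 149 CPM in WT, 274, 237, 273 and 322 in V321L mice) did not overlap.

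Whether the genotype difference varied between classes was tested on the difference of log2(CPM + 10) between a class and the GCs of the same mouse. The test was run for the members only, so no share of all genes stands beside its counts. After adjustment 0 of 60 comparisons passed an exact permutation test (smallest adjusted p = 0.343), and 4 of 60, or 6.67%, did not overlap and reached the smallest p that 4 against 4 mice allow, 0.0286. These were *Kcnj3* in oligodendrocytes (-1.39), *Kcnj6* in astrocytes or radial glia (-2.26), *Kcnj10* in astrocytes or radial glia (0.91) and *Kcnk1* in microglia (1.11), where no WT UMI was counted. The passing differences listed by class are therefore not shown to be particular to a class.

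Shares of GCs with a UMI depended on depth. They were computed for the members only, so no share of all genes stands beside the counts of members below. These counts therefore do not set the members apart from other genes. At full depth, 8 of 10 members had a higher share in V321L GCs (adjusted p = 0.0357 each, two-sided exact permutation test), among them *Kcnk1* (39.0% ± 5.73 against 12.7% ± 3.11), *Kcnk2* (32.0% ± 2.87 against 6.02% ± 1.14) and *Kcnj4* (17.0% ± 3.53 against 1.92% ± 0.667). Even *Kcnj3*, lower in CPM, had a share of 91.1% ± 4.45 in V321L against 83.2% ± 5.15 in WT GCs. With each GC thinned to 1000 UMIs, which left 787 to 1927 WT and 892 to 1215 V321L GCs per mouse, *Kcnj3* turned to 59.3% ± 2.28 against 74.4% ± 1.67, and *Kcnk10* to 7.08% ± 1.2 against 8.10% ± 1.61. At that depth *Kcnk1* (13.3% ± 0.991 against 6.84% ± 1.17), *Kcnk2* (10.4% ± 1.01 against 3.54% ± 1.07), *Kcnj4* (4.76% ± 0.753 against 1.09% ± 0.776) and *Kcnj9* (4.43% ± 0.0874 against 2.33% ± 0.885) did not overlap between the genotypes. These 4 and *Kcnj3* reached the smallest possible p of 0.0286, which adjusted to 0.0571, so 0 of 10 passed. At 500 UMIs, 6 of 10 passed (adjusted p = 0.0476, exact permutation test): *Kcnj3* lower, and *Kcnj4*, *Kcnj9*, *Kcnk1*, *Kcnk2* and *Kcnk9* higher. *Kcnj2* was at 0.832% ± 0.413 in V321L and 0.839% ± 0.320 in WT GCs there. As a background, 18.8% of 165 WT and 6.61% of 635 V321L oligodendrocytes had a *Kcnj3* UMI (median depths of 662 to 864 and 950 to 1301), and 4.85% and 3.31% a *Kcnk1* UMI.

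**Figure D4:**
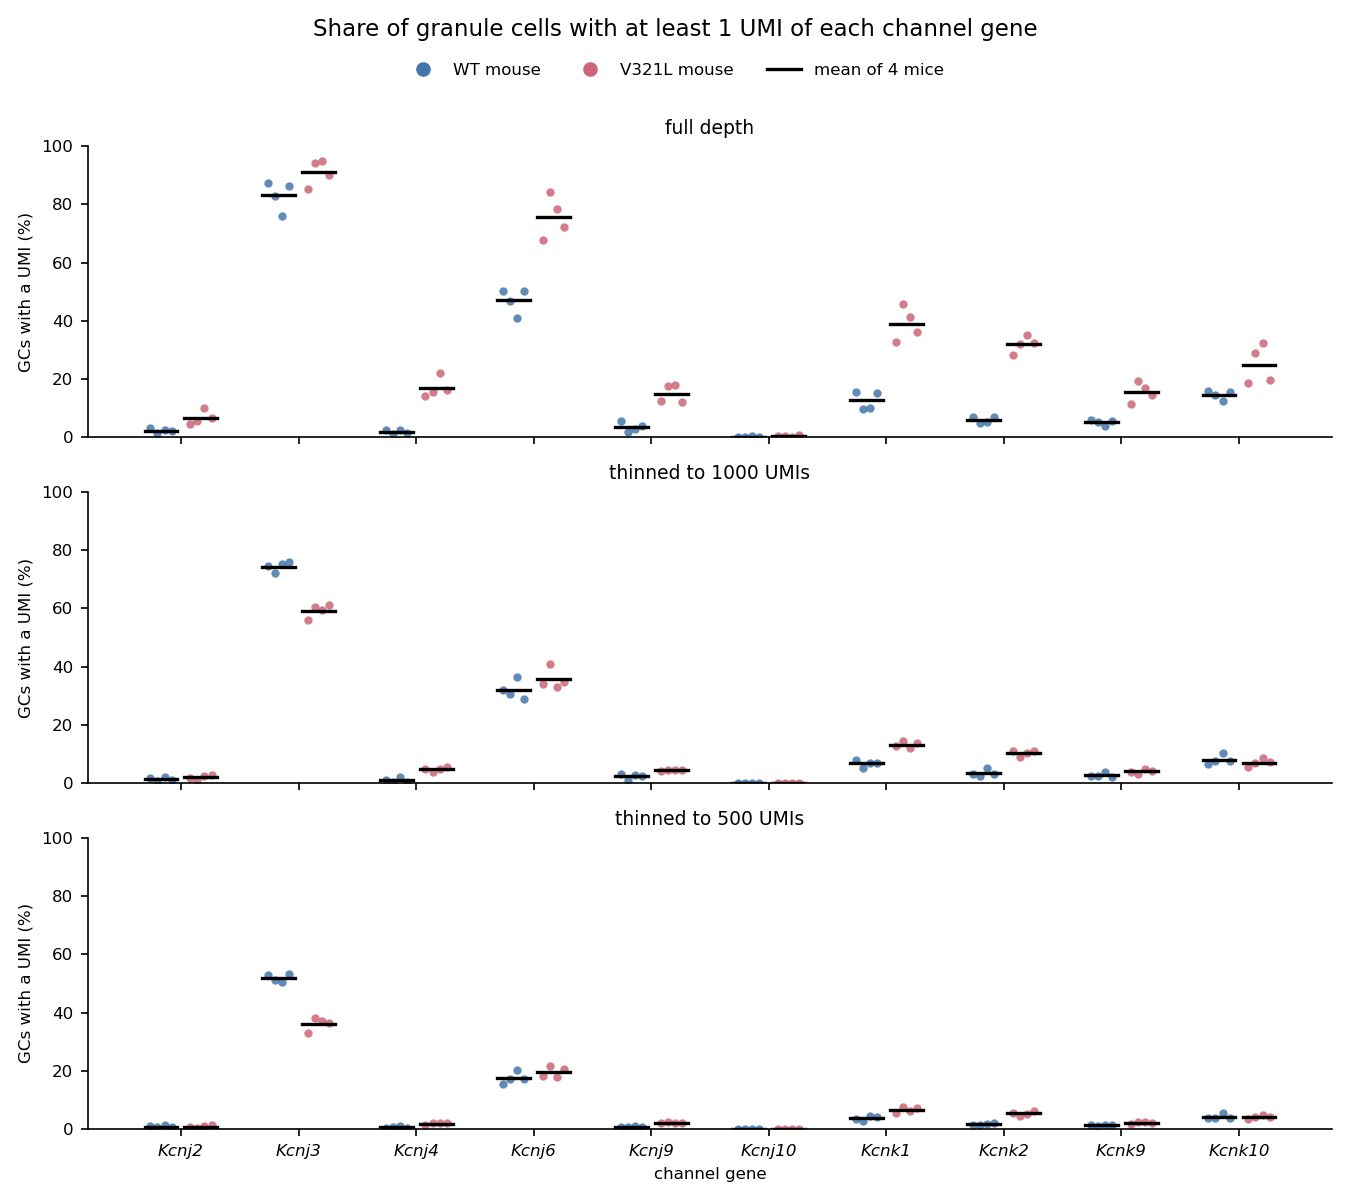
Share of GCs with at least 1 UMI (%, linear axis from 0 to 100) of each channel gene at full depth, after thinning each nucleus to 1000 UMIs and to 500 UMIs, with 1 point per mouse and black lines for the mean of 4 mice. *Kcnj3* is higher in V321L at full depth (91.1% against 83.2%) and lower after thinning to 1000 UMIs (59.3% against 74.4%), whereas *Kcnk2* stays higher in V321L (10.4% against 3.54%).

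Promoter accessibility of the members in GCs was compared between the genotypes. The two-sided exact permutation test passed in 0 of 10 genes (adjusted p = 1.0 for each, and 0 with an unadjusted p under 0.05). *Kcnk2*, whose RNA differed most in fold among two-pore genes, was at 23.7 ± 2.11 ATAC CPM in WT and 26.9 ± 9.39 in V321L GCs over its long start-site interval. *Kcnj3* was at 38.5 ± 7.91 and 38.5 ± 5.46, and *Kcnj4* at 32.6 ± 2.08 and 35.0 ± 8.26. Every library had its own peak calls, and with 4 mice against 4 these tests do not show that accessibility was equal.

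GCs with *Penk* or *Sorcs3* RNA were compared with the other GCs of the same mouse, since these genes mark SGCs in the study. The study took GCs with *Penk*, *Nptx2* and *Sorcs3* together as SGCs and also counted *Sorcs3*+ GCs without *Penk*. A GC with 1 of these markers is therefore not shown to be an SGC. *Kcnj2* and *Kcnk1* were the members that were higher in both marked groups. The study had found both genes among those enriched in *Penk*+ GCs and tied to the trajectory toward its *Sorcs3*-marked cluster. It did so in the libraries of these same mice, so the comparisons below are not an independent test of these genes. The study also described both genes as higher and more widespread in V321L GCs. In the GC fit above *Kcnk1* passed as higher (0.45, adjusted p = 0.00217, edgeR) and *Kcnj2* did not pass (0.19, adjusted p = 0.556, edgeR). Their shares of GCs with a UMI were both higher at full depth, and at 500 UMIs that of *Kcnk1* passed and that of *Kcnj2* did not. *Penk*+ GCs numbered 14 to 27 per WT mouse (0.626% to 2.00% of GCs) and 48 to 92 per V321L mouse (5.32% to 7.52%), and the edgeR fit with mouse as a block passed 5.90% of 9019 genes, 2.37% higher and 3.53% lower. *Kcnj2* was 46.6 CPM in *Penk*+ and 14.5 CPM in *Penk*- GCs as means over mice (log2 fold change of 1.49 ± 0.25, adjusted p = 1.64e-07, edgeR), and *Kcnk1* 143 and 98.5 CPM (0.64 ± 0.13, adjusted p = 9.89e-05, edgeR). The other 7 members tested did not pass, with *Kcnk9* the lowest at -0.62 ± 0.26 (adjusted p = 0.162, edgeR).

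The WT part of the *Penk* comparison rested on few molecules. WT *Penk*+ GCs held 1, 2, 2 and 1 *Kcnj2* UMIs, and V321L *Penk*+ GCs 9, 18, 17 and 10. *Kcnj2* was higher in the *Penk*+ GCs of 7 of 8 mice, WT F1 being the exception. *Kcnk1* in WT *Penk*+ GCs gave 99.9, 0, 47.6 and 168 CPM on 0 to 9 UMIs, higher than in *Penk*- GCs (74.5, 54.5, 88.9 and 67.8 CPM) in 2 of 4 mice, with a mean log2 difference of -0.47 ± 1.68. In V321L mice it gave 205, 179, 256 and 187 CPM against 118, 134, 117 and 133, higher in 4 of 4 (0.67 ± 0.31). With WT mice alone neither gene passed (*Kcnj2* 1.23, adjusted p = 0.676; *Kcnk1* 0.10, adjusted p = 0.972; edgeR), while with V321L mice alone both did (1.53 and 0.70). The difference between the genotypes did not pass for any member (adjusted p = 0.816 to 0.943, exact permutation test), which does not show that the *Penk* difference was the same in both. Without V321L F1 the *Kcnk1* call was lost (0.52, adjusted p = 0.103, edgeR). When *Penk*- GCs were matched on UMI count, *Kcnk1* kept its call (0.69) and *Kcnj2* was too low to be tested.

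*Sorcs3*+ GCs were more numerous, at 98 to 296 per WT and 108 to 172 per V321L mouse, and 14.6% of 9450 genes passed, 7.10% higher and 7.52% lower. *Kcnj2* gave 23.4, 15.8, 39.0 and 26.7 CPM in WT *Sorcs3*+ GCs against 11.2, 5.11, 17.9 and 8.38 in WT *Sorcs3*- GCs, and 27.4, 20.1, 49.0 and 46.5 against 12.3, 12, 21.3 and 16.7 in V321L mice. It was higher in 8 of 8 mice (1.23 ± 0.17, adjusted p = 1.07e-07, edgeR) and in WT mice alone (1.39, adjusted p = 0.000927, edgeR). *Kcnk1* gave 106, 69.5, 145 and 96.4 CPM against 68.2, 51.3, 82.1 and 65.0 in WT, and 161, 162, 202 and 184 against 119, 133, 111 and 128 in V321L mice. This too was higher in 8 of 8 mice (0.55 ± 0.08, adjusted p = 3.84e-07, edgeR), while median depth was also higher in *Sorcs3*+ than in *Sorcs3*- GCs in 7 of 8 mice. With *Sorcs3*- GCs matched on UMI count both calls were kept (1.33 and 0.58), but the match left a gap in median depth in WT F1 (3092 against 2435 UMIs) and smaller ones in WT F2 (2292.5 against 2146) and V321L M2 (3998 against 3793.5). Lower in *Sorcs3*+ GCs were *Kcnk9* (-0.66 ± 0.15, 8 of 8 mice, adjusted p = 0.000918), *Kcnk2* (-0.44 ± 0.10, 7 of 8 mice, adjusted p = 0.00137) and *Kcnj6* (-0.28 ± 0.05, 8 of 8 mice, adjusted p = 8.66e-05), all from edgeR. The *Kcnk2* call was lost with WT mice alone and the *Kcnk9* call with V321L mice alone. *Kcnj3* (0.09), *Kcnj4* (0.05), *Kcnj9* (0.28) and *Kcnk10* (-0.14) did not pass. The *Sorcs3* difference did not pass between the genotypes for any member (adjusted p = 0.667 to 1.0, exact permutation test). The smallest unadjusted p this test allows is 0.0286, and a member alone at that value could not pass after adjustment. The test therefore does not show that the *Sorcs3* difference was the same in both genotypes. *Kcnj4* had the smallest unadjusted p (0.0857, exact permutation test). Its mean log2 difference was -0.34 ± 0.21 in WT and 0.13 ± 0.22 in V321L mice. *Kcnk2* was higher in V321L than in WT GCs but lower in *Sorcs3*+ than in *Sorcs3*- GCs.

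**Figure D5:**
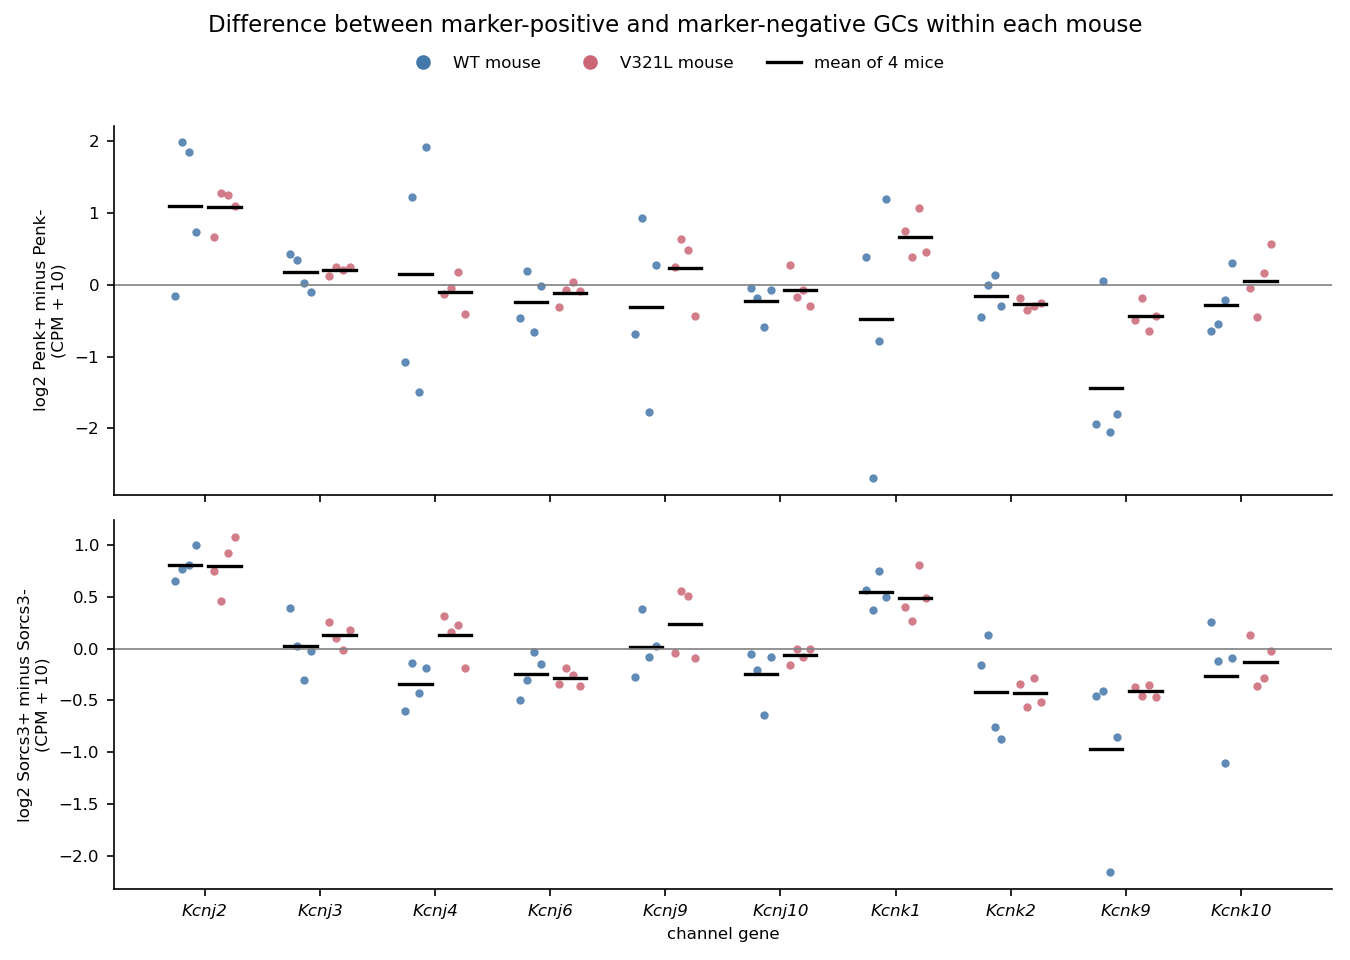
Log2 difference of (CPM + 10) between *Penk*+ and *Penk*- GCs (upper panel) and between *Sorcs3*+ and *Sorcs3*- GCs (lower panel) of the same mouse for the 10 genes, with 1 point per mouse and black lines for the mean of 4 mice. *Kcnj2* and *Kcnk1* lie above 0 in 8 of 8 mice for *Sorcs3*, and the WT points for *Penk*, which rest on 14 to 27 nuclei per mouse, spread widely.

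Genes that work with these channels were followed from lists of known partners. Of 20 GIRK signalling partners (GABA-B receptor subunits and their KCTD proteins, other inhibitory receptors, G protein subunits and RGS regulators), 6 were higher, 10 lower and 4 did not pass in V321L GCs, beside 38.4% of all GC genes higher and 31.7% lower, with a median log2 fold change of -0.19 beside 0.11 for all genes. With library sizes alone the counts turned to 7 higher and 3 lower and the medians to 0.26 and 0.56, while the genes named here kept their direction and call. *Rgs7*, which speeds the closing of GIRK channels, fell from 1078 to 682 CPM (-1.11 ± 0.12, adjusted p = 6.43e-06, edgeR). *Kctd8*, an auxiliary GABA-B subunit, fell by 1.77 (14.6 to 5.68 CPM, adjusted p = 1.19e-05), while the G protein subunits *Gnb2* (7.80 to 77.8 CPM, 2.98 ± 0.33) and *Gnai2* (6.29 to 27.4 CPM, 1.77 ± 0.27) rose. The minimum of 10 CPM for naming a gene was applied to the mean of both groups, which *Gnb2*, *Gnai2*, *Kctd8* and the scaffold gene *Lin7b* reached through their higher group. In *Sorcs3*+ GCs *Rgs6* was higher (118 against 54.5 CPM, 1.07 ± 0.11, adjusted p = 1.99e-11, edgeR), as it was in *Penk*+ GCs (0.80 ± 0.16), and the adenosine receptor *Adora1* was lower in both (-0.42 ± 0.14 and -0.90 ± 0.25).

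Of 13 partners that anchor or traffic Kir2 and K2P channels, 4 were higher, 6 lower and 3 did not pass in V321L GCs (median -0.20), where 70.1% of all genes passed, against 4 higher and 3 lower (median 0.25) with library sizes alone. The scaffold gene *Dlg2* fell from 8876 to 4768 CPM (-1.35 ± 0.14, adjusted p = 3.63e-06, edgeR) and *Cask* from 202 to 132 (-1.08 ± 0.13), whereas *Lin7b* rose from 2.57 to 52.3 CPM (4.09 ± 0.30) and *Dlg4*, which encodes PSD-95, from 39.0 to 94.0 (0.83 ± 0.10). *Lin7a* was higher in *Penk*+ (0.75 ± 0.17) and *Sorcs3*+ GCs (0.95 ± 0.10, adjusted p = 1.80e-10, edgeR). In astrocytes or radial glia, 4 of the 8 Kir4.1 neighbours tested were higher and none lower, beside 24.4% of all genes higher and 18.3% lower, with a median of 0.93 beside 0.00 for all genes. These included *Atp1b2*, which encodes a beta subunit of the sodium pump (198 to 511 CPM, 1.39 ± 0.27, adjusted p = 0.00119, edgeR). The neighbour list also holds *Slc1a2* and *Slc1a3*, which were markers used to assign astrocytes. Their levels in this class are therefore partly set by the gate. Of the 9 other Kir and 10 other K2P genes, 2 and 4 were high enough to be tested in GCs, with 1 and 2 past the threshold that 70.1% of all genes passed.

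Genes whose WT class means were most like those of a member were named by the Pearson correlation of log2(CPM + 1) over 7 classes among 12381 genes. The points share libraries and depth, and 7 points pick high values from so many genes, so these are descriptions only. For *Kcnk1* they were *Glo1* (r = 0.997), *Tspyl5* (0.994) and *Hlf* (0.985), and for *Kcnj10* *Vangl1* (0.997), *Vstm4* (0.992) and *Mtrf1l* (0.990). *Kcnj6* was most like *Erc2* (0.976), an active-zone scaffold gene, and *Kcnj3* like *Gm20407* (0.958), *Pip5k1a* (0.948) and *Arhgap20* (0.934). For the other 6 members the highest correlation lay between 0.960 (*Kcnk10*) and 0.994 (*Kcnk9*).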

How the data were processed

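Multiome libraries of dentate gyrus nuclei came from 8 mice. The file headers name Cell Ranger ARC 2.0.2 and the submitters' processing notes mm10. The authors deposited unnormalized counts (RNA UMIs and ATAC counts in peaks called per library) for all barcodes. RNA depth was 4326426 to 23582057 UMIs per library.

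Barcodes with over 500 UMIs, over 250 genes and at least 500 ATAC counts, under the upper limits given in the study's methods, were kept as nuclei. A nucleus joined its leading class when at least 2 different markers were present. Classes other than GC also needed 3 times the marker UMIs expected at the GC level. Nuclei that passed the gate of a second class were set aside as mixed (677 WT, 391 V321L). That second class could not be GC and needed at least 1 in 4 of the leading class's marker UMIs. A nucleus led by another class was therefore kept when it also held GC markers. Nuclei of no class (1090 WT, 396 V321L) were set aside too. This gate departed from the one first listed after the data were seen: markers listed for checking were added, markers of classes other than GC under 3 times as high in their own class as elsewhere were dropped, and the GC level was subtracted. The gate as first listed was run as an alternative. No doublet caller was run. UMIs were summed per mouse and class and tested with edgeR 4.0.16 in R 4.3.3 (quasi-likelihood, TMM, low genes filtered, adjusted p at most 0.05). Log2(CPM + 10) and per-million promoter values were tested with exact tests in scipy 1.17.1 under Python 3.11.15, and DESeq2 1.42.0 was an alternative. On simulated counts of 12326 GC genes, 55.0% of genes changed by a log2 fold of 1 and 95.0% of those changed by 2 were recovered. The simulation changed 200 genes at a dispersion of 0.05, whereas 70.1% of GC genes passed in the data. It therefore does not test the scaling where so many genes differ. Named genes were the 10 members, the 2 highest and 2 lowest passing genes of each partner list at 10 CPM or more as the mean of both groups, and the 3 most like genes per member. Among the genes this rule picked, a single gene is not reported here. The members and lists were chosen with earlier results of these data known. Labels F1, F2, M1 and M2 name mice and do not pair them.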

Additional observations from a re-analysis of the deposited data

Results flagged for a closer look

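*Kcnj3* in the GCs of WT F2, at 1453 CPM, lay far below the other 3 WT mice (1596 to 1617 CPM) for a group of 4 with so narrow a range, and above all 4 V321L mice. It was 1 of 40 groups of 4 mice examined for a stray sample, and chance alone marks about 1 in 20 such groups. WT F2 also had the most GCs (2556). Without it the *Kcnj3* difference between the genotypes kept its direction and call.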

How the results depend on the processing

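*Kcnj3*, *Kcnj4*, *Kcnk1* and *Kcnk2* in GCs kept direction and call under all 24 alternatives, and *Kcnk1* and *Kcnk2* in astrocytes under all 15. In all, 229 counts and summaries stayed within 1.5 times their value and 73 did not, and for single genes 623 values kept direction and call, 59 lost the call, 7 gained it and 34 changed sign. Unless stated, causes were not tested. Thinning and stricter gates also leave fewer nuclei.

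In GCs, 4535 of 7398 genes tested passed at 500 UMIs per nucleus. *Kcnj2* turned to -0.06 at 1000 and -0.40 at 500 UMIs, and from -0.05 (without WT F2) through -0.01 (without V321L M1) to 0.35 without 1 mouse, and *Kcnj6* to 0.17 with library sizes alone. In other excitatory neurons 1 member passed with DESeq2, library sizes, the replicate block or free RNA subtracted, 0 with 3 markers or thinning, and 4 with the markers first listed. The gate behind the main values was set after seeing the data. Genes passing there were 969 of 3822 tested with free RNA subtracted, 17 of 318 with 3 markers, 120 of 904 thinned and 3495 of 7207 with listed markers. Of 4581 tested, 1448 passed with DESeq2, 1644 with library sizes and 1549 with the replicate block. The gate with 3 markers left 1 to 4 WT nuclei per mouse in this class. With so few genes tested, 0 members passing does not show that a difference was lost. *Kcnj6* there was -0.35 and *Kcnk10* -0.38 with listed markers, and without 1 WT mouse *Kcnj6* reached -0.12, -0.04 and -0.07 (range over 8 mice -0.12 to 0.28) and *Kcnk10* -0.05 and -0.16 (-0.16 to 0.27). GABAergic neurons had 0 members thinned, with 695 of 2924 genes tested after free RNA subtraction and 100 of 753 thinned. Astrocytes had 3 members with the replicate block, 3 markers, thinning or listed markers. Genes passing there were 982 of 2962 tested with free RNA subtracted, 515 of 1261 thinned and 878 of 2314 with listed markers. With the replicate block 1246 of 3579 passed, and with 3 markers 1216 of 3236. Oligodendrocytes had 420 of 2081 genes tested with free RNA subtracted and 175 of 551 thinned. OPCs had 1 member with the replicate block or listed markers and 2 with 3 markers. There 202 of 653 genes tested passed with the block, 142 of 791 with listed markers, 177 of 907 with 3 markers and 60 of 242 thinned. Microglia had 0 members with free RNA subtracted, thinned or with listed markers. Genes passing there were 254 of 1012 tested with DESeq2, 93 of 890 with free RNA subtracted, 22 of 111 thinned and 139 of 687 with listed markers.

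For *Penk*, 1 member passed when matched on UMIs and 0 with WT mice alone. Genes passing were 430 of 4081 tested when matched, 107 of 6954 in WT alone and 292 of 10690 at 2 *Penk* UMIs. In WT alone *Kcnj3* was -0.05, *Kcnj4* 0.55 and *Kcnj9* -0.47. *Kcnj4* was 0.04 at 2 UMIs and 0.03 without V321L M2 (-0.15 to 0.03 over 8 mice), and *Kcnj3* was -0.11, -0.02, -0.05, -0.07 and -0.05 without WT F1, WT F2, V321L F1, F2 and M2 (-0.11 to 0.11). For *Sorcs3*, 685 of 7970 genes tested passed in WT alone, and *Kcnj4* was -0.05, -0.00 and -0.02 without V321L F1, F2 and M1 (-0.05 to 0.13). Of shares, 0 passed at 1000 UMIs or with 2 UMIs required. The share difference was -15.1 and -15.8 points for *Kcnj3* and -1.02 and -0.155 for *Kcnk10* at 1000 and 500 UMIs, and -0.00691 for *Kcnj2* at 500. Promoter differences changed sign for *Kcnj3* (-6.25), *Kcnj4* (-4.09) and *Kcnk9* (-1.14 ATAC CPM) with ATAC counts thinned, and for *Kcnj6* (2.58) near either end of its start-site interval, a window chosen after seeing the data.

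Leaving out 1 mouse gave 1 to 2 members in other excitatory neurons and 1 to 2 in GABAergic neurons. It gave 3 to 5 in astrocytes, 0 to 1 in OPCs and in microglia and 1 to 2 for *Penk*. Genes passing ran from 1306 of 4357 tested to 2152 of 5606 in other excitatory neurons. In GABAergic neurons they ran from 887 of 3186 to 1546 of 4221. Astrocytes had 1144 of 3432 to 2015 of 4294, and oligodendrocytes 316 of 1326 to 1066 of 3723. OPCs had 190 of 779 to 297 of 771, and microglia 59 of 511 to 459 of 1924. For *Penk* the range was 289 of 8372 to 565 of 10281. Mice with the same label did not deviate together (correlations of 0.08, 0.22, -0.11 and 0.04 for F1, F2, M1 and M2), so the labels do not pair them. With the label as a replicate block *Kcnj3* was -0.54 in other excitatory neurons, *Kcnj6* -1.86 and *Kcnj10* 0.99 in astrocytes, each without its call, and *Kcnj3* in OPCs -1.04 and past the threshold.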
